A study of Mus musculus with 60 samples.

Results

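The comparison described here is the hippocampus of mice 8 weeks after injection of cachectic melanoma cells (labelled CAC, 7 samples) against that of mock-injected mice at the same time (labelled Con, 5 samples). Samples were taken by their labels alone, and they are 12 of the 60 in the series. The series holds the same groups, with another group given non-cachectic melanoma cells (labelled NCAC, 5 samples at 8 weeks), at 2, 4, 6 and 8 weeks after injection. All mice were female and 2 months old by the labels, which do not say whether this was the age at injection or at sampling. The strain is given in conflicting ways, C57BL6/J in the sample labels and NCI Ath/nude, a nude strain, in the design text. No genotype or drug was listed for any group, the melanoma lines were not named, and the site of injection was not given in the sources used here. Replicates are called biological in the labels, which do not tie each to its own animal. The p-values therefore reflect only how far samples scatter within their groups, taken over all 60 samples, which may be partly technical.

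Cachexia is a wasting syndrome in which muscle and fat are lost during a tumour or another chronic disease. The hippocampus, a forebrain region that serves memory, is rich in receptors for glucocorticoids, the adrenal hormones released in stress and fasting. These hormones enter cells, bind the glucocorticoid receptor and change transcription at DNA elements that the receptor recognises. Cytokines of the interleukin-6 family act through receptors that activate the transcription factor STAT3, in vessel cells and glia as in liver.

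RNA was measured as TPM, a level scaled by gene length and by the total of each sample. The recovered depth was 35337059 to 42044671 reads over the 12 samples. Differences below are CAC minus Con on the log2(TPM + 0.5) scale with the standard error (SE) from limma, which understates the change of low genes. A gene rose or fell where limma's p, adjusted by Benjamini-Hochberg over the 15608 genes tested, was under 0.05. The 11 hippocampal identity genes (Prox1, Wfs1, Nrgn and others) were all measured, with a mean of 7.70 to 8.02 log2 per sample in CAC and 7.81 to 7.98 in Con. Genes enriched in striatum, thalamus or cortex held 0 calls in either direction. Those of choroid plexus epithelium also held 0, but their summed level ran from 136.5 to 5719 TPM in CAC and 636.9 to 6973 in Con. With that spread, 0 calls do not show an even content of choroid plexus. Of 11 melanoma and melanocyte genes 5 were high enough to test, with 0 calls, and Sox10 of that list is also an oligodendrocyte gene. Tissue is a mixture of cells, and fewer cells of a type and less RNA per cell cannot be told apart.

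A pair of samples stood apart. CAC replicate 3 had the most blood RNA, with 7921 TPM summed over 5 erythrocyte genes where the Con samples held 508.2 to 1613. It was the lowest of the 7 CAC samples in 1056 of the 1757 genes that rose, where each other CAC sample was the lowest in 5 to 355. In 857 of these genes it lay within or below the Con range. Con replicate 5 held 135 TPM of the immunoglobulin light chain Igkc, against 0.974 to 14.7 in the other Con samples. Calls that were lost without either sample are given beside the gene. Losses without other samples are not marked by gene. Of 136 named genes called, 47 lost the call without CAC replicate 2 and 34 without CAC replicate 6. Without Con replicate 1 the number was 43, and without Con replicate 3 it was 39.

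In all 2256 genes differed. Of the 15608 tested, 1757 (11.3%) rose in CAC and 499 (3.2%) fell, and 34 of the rises and 65 of the falls exceeded 2-fold. The 7 CAC samples lay wholly above the 5 Con samples in 737 genes (4.72%) and wholly below in 358 (2.29%). Of the called genes, 777 showed no overlap. The balance of directions depended on the scaling. With median-of-ratios scaling 679 genes rose (4.35%) and 730 fell (4.68%), so that 48.2% of calls were rises in place of 77.9%, and no gene was called in opposite directions. With limma's voom on the recovered reads, so scaled, 713 rose and 884 fell (44.6% rises), and 1197 of these genes were among the 2256. The median difference over all genes was 0.048 as deposited and -0.011 so scaled. Counts in the gene lists below stand against 11.3% rises and 3.2% falls as deposited, and 4.35% and 4.68% with median-of-ratios scaling. Without CAC replicate 3 there were 2476 rises and 594 falls, and 2210 of the genes called with it were among them. The count was 1034 without CAC replicate 2, 1382 without CAC replicate 6, 1287 without Con replicate 1 and 1090 without Con replicate 3.

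The genes with the largest rises were low or moderate in mock-injected mice. Etnppl (ENSMUSG00000019232.14, chromosome 3, 130617448 to 130637521, GRCm38), the astrocyte lyase that breaks down phosphoethanolamine, measured 0.283, 0.363, 0.833, 0.843 and 1.14 TPM in Con. In CAC the lowest, median and highest values were 0.995, 11.9 and 20.1 TPM. The lowest was replicate 3, inside the Con range, and the other 6 samples began at 10.1 TPM, far above every Con sample. The difference was 3.21 ± 0.49 (SE, adjusted p = 0.00024 by limma), and 3.68 without replicate 3.

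Scgb3a1, a small secreted secretoglobin of epithelia, measured 0, 0.145, 0.295, 0.578 and 0.787 TPM in Con and 0.429, 6.8 and 20.7 TPM (lowest, median, highest) in CAC. Replicate 3 again lay within the Con range and the other 6 lay above it, from 4.04 TPM. The difference was 3.11 ± 0.49 (SE, adjusted p = 0.00027 by limma) and 3.60 without replicate 3. Plin4, a coat protein of lipid droplets, ran from 1.54 to 8.24 TPM in Con and from 28.5 to 60.4 TPM in 6 CAC samples, with 2.53 TPM in replicate 3. Its difference was 2.99 ± 0.65, or 3.53 without that sample. Rtp1, a chaperone of odorant receptors, ran from 0.238 to 1.21 TPM in Con and from 4.38 to 9.79 in the same 6 samples, with 0.74 in replicate 3 (2.51 ± 0.45).

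A second set of strong rises included replicate 3. Tmem252, a membrane protein listed here among vessel genes, measured 0.637, 0.828, 0.988, 1.12 and 1.5 TPM in Con and 2.98, 4.45 and 8.05 TPM (lowest, median, highest) in CAC. Lcn2, an iron-siderophore-binding protein of the acute phase, measured 0.0897, 0.199, 0.46, 0.461 and 0.94 TPM in Con and 1.02, 2.61 and 6.55 TPM in CAC. Ch25h, which turns cholesterol into an antiviral oxysterol, ran from 0.0687 to 0.959 TPM in Con and from 1.86 to 4.88 in CAC. No sample overlapped in any of the 3 genes, and for Lcn2 and Ch25h the highest sample was replicate 3. Tmem252 rose by 1.85 ± 0.33, Lcn2 by 1.83 ± 0.32 and Ch25h by 1.74 ± 0.30, and without replicate 3 the differences were 1.87, 1.64 and 1.66.

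**Figure D1:**
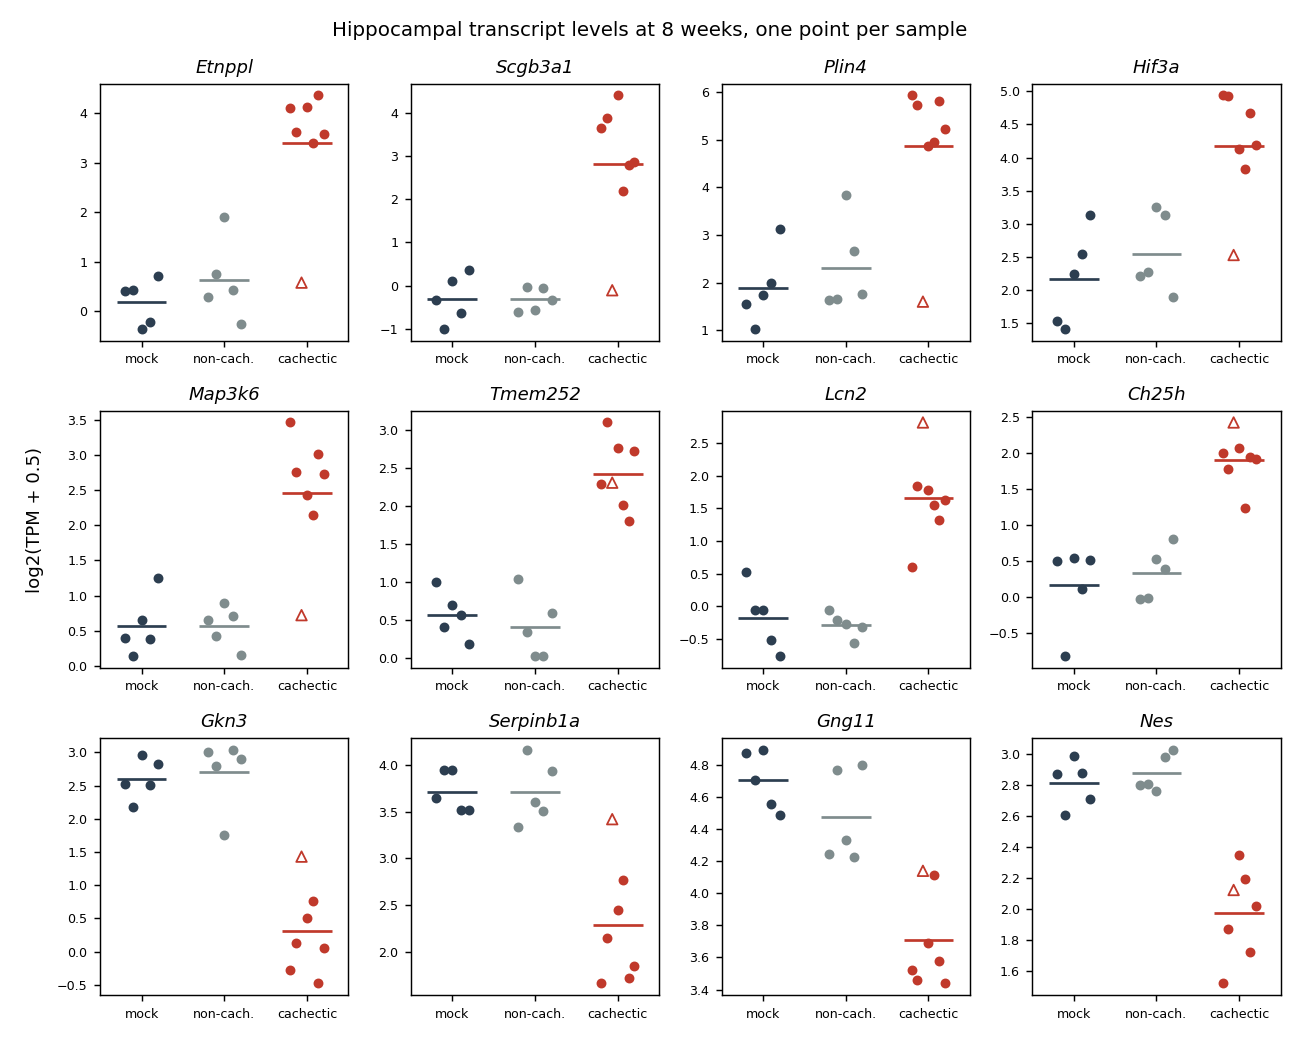
Levels of 12 genes at 8 weeks as log2(TPM + 0.5), one point per sample, for mock-injected mice (5), non-cachectic tumour (5) and cachectic tumour (7), with lines at the group means and CAC replicate 3 drawn as an open triangle. For Etnppl, Scgb3a1, Plin4, Hif3a and Map3k6 the triangle sits among the mock samples while the other 6 cachectic samples lie above them; for Tmem252, Lcn2 and Ch25h it lies with the cachectic samples.

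Glucocorticoid target genes were the list with the most rises for its size. Of 33 measured, 22 rose and 0 fell, where 11.3% and 3.2% of all genes tested did. The median difference was 0.61 against 0.05 over all genes tested. Of the 33 genes 8 lay wholly above the Con range, as did 4.72% of all genes tested. The counts were 20 and 0 with median-of-ratios scaling, 22 and 0 after removal of GC and length trends, and 25 and 0 without CAC replicate 3. The list was drawn up with earlier results of these samples known, Plin4, Hif3a and Map3k6 among them, so its direction is not independent evidence.

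Among its members with metabolic roles, Pdk4, the kinase that limits glucose oxidation, measured 13.7, 14.8, 14.8, 14.9 and 15.2 TPM in Con and 16.3, 30.6 and 41.1 TPM (lowest, median, highest) in CAC. Every CAC sample exceeded every Con sample, though replicate 3 was close to them (1.00 ± 0.19, adjusted p = 0.0014 by limma). Sult1a1, which sulfates phenolic steroids and drugs, ran from 8.0 to 16.8 TPM in Con and from 38 to 71.8 in 6 CAC samples, with 12.6 in replicate 3 (1.78 ± 0.34). Gpd1, the glycerol phosphate dehydrogenase that links glycolysis to lipid synthesis, rose by 0.34 ± 0.07.

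The signalling members rose as well. Sgk1, a kinase of ion transport that is a classic target of corticosteroids, measured 37.1, 38.4, 41.9, 45.2 and 46 TPM in Con and 65.6, 99 and 111 TPM in CAC. The groups did not overlap, and the difference was 1.16 ± 0.21. Cdkn1a, the p21 inhibitor of the cell cycle, ran from 6.13 to 6.98 TPM in Con and from 7.38 to 43.3 in CAC (1.65 ± 0.31), again without overlap. Map3k6, a stress kinase, rose by 1.90 ± 0.38, Hif3a, a member of the hypoxia factor family, by 2.00 ± 0.44, and Rhou, a small GTPase, by 0.55 ± 0.11. Chosen after their values were seen, Fkbp5, the co-chaperone that restrains the glucocorticoid receptor, rose by 0.86 ± 0.18, and Tsc22d3, an anti-inflammatory leucine zipper protein, measured 0.62 ± 0.22 (adjusted p = 0.051 by limma). The receptors themselves, Nr3c1 and Nr3c2, also chosen afterwards, measured -0.13 ± 0.09 and -0.09 ± 0.10 and did not pass, though Nr3c1 was called lower after removal of GC and length trends (adjusted p = 0.021).

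Promoters of strongly rising genes are shown because part of this list holds the core of the glucocorticoid response element. They are the 250 bases before the start of the annotated transcript, from RefSeq on GRCm38.p6, 5′ to 3′ on the gene's strand, with the core ACANNNTGT in capitals. Map3k6 lies at chr4:133240568-133240817 on the plus strand, Lcn2 at chr2:32387740-32387989 on the minus strand, and Tmem252, which is not in the list, at chr19:24673758-24674007 on the plus strand.
Map3k6: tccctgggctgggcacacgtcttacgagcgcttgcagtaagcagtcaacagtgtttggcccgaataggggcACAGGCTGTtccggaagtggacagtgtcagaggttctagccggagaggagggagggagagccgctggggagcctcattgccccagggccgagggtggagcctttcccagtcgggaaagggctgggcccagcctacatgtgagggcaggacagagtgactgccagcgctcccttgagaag
Lcn2: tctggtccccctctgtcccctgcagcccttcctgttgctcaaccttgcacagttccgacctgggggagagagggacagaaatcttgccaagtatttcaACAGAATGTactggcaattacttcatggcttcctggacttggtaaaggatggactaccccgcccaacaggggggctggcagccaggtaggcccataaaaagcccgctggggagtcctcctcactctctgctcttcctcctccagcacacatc
Tmem252: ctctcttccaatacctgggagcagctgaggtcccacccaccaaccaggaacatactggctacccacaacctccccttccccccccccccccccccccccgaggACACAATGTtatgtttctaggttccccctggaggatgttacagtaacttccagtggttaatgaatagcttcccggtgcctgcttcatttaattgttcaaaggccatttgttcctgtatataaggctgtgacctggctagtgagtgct
In windows of 300 bases, which reach 50 bases past the start, this core occurred in 6.85% of all 32851 windows, or in 7.9% of the genes that have one. It occurred in 5 of the 27 list members with a window (18.5% of genes), and in 5.3% of tested genes with a window. The 5 were Fam107a, Galnt15, Lcn2, Map3k6 and Sgk1, all among the 18 risen targets with a window (27.8% of genes). Those 18 were picked by their rise in these data, so the 27.8% is not independent evidence. The core reads the same on both strands, 27 of the 33 list members matched a window by symbol, and genes with several starts had several windows. The motif was picked after matches to several factor motifs had been looked at. Another of these, the E-box CACGTG, occurred in 6 of the same 27 list members (22.2%) and in 11.4% of tested genes. A match is not shown to be a binding site.

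**Figure D2:**
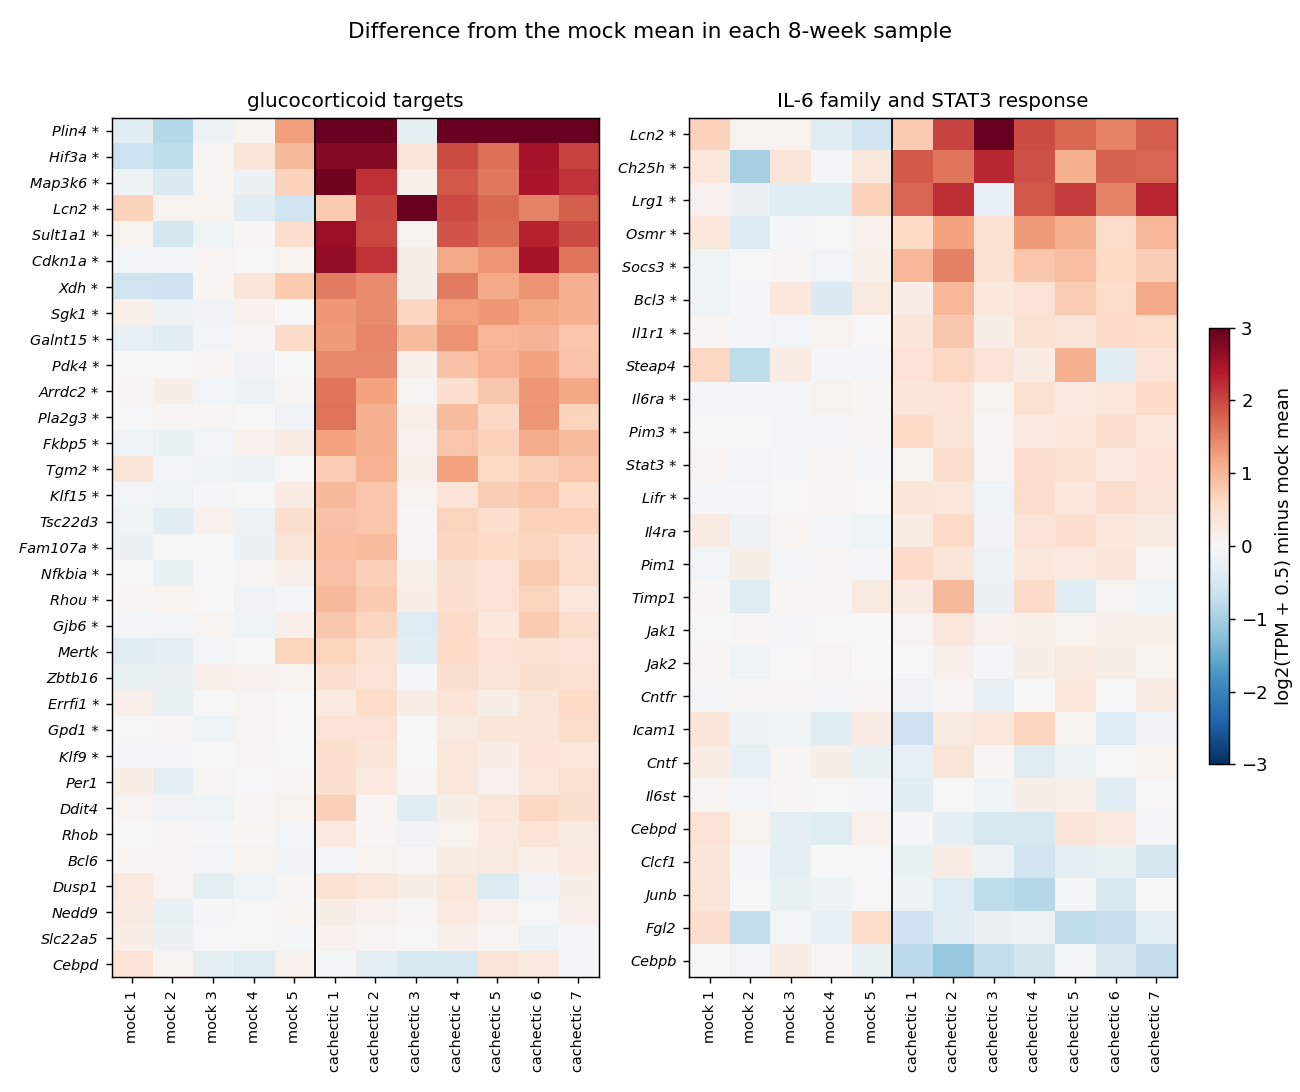
Difference of each 8-week sample from the mock mean on the log2(TPM + 0.5) scale for the tested glucocorticoid targets (33, left) and genes of the IL-6 family and STAT3 response (26, right), ordered by the group difference, with called genes marked by an asterisk and colours saturating at 3 and -3. Cachectic samples 1, 2 and 4 to 7 are above the mock mean in most rows of the left panel, and cachectic sample 3 is near it except in Lcn2, Galnt15 and Sgk1.

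Genes of the interleukin-6 family and STAT3 response rose in 11 of 26 measured, and 0 fell, with a median of 0.28. Of all genes tested 11.3% rose and 3.2% fell. The receptor subunit Osmr, which binds oncostatin M, measured 1.12, 1.59, 1.69, 1.88 and 2.2 TPM in Con and 2.46, 3.81 and 4.73 TPM in CAC, with no overlap and a difference of 0.88 ± 0.16 (adjusted p = 0.001 by limma). Il6ra, the ligand-binding receptor for interleukin-6, rose by 0.37 ± 0.08 and the interleukin-1 receptor Il1r1 by 0.48 ± 0.14, both again without overlap. Il1r1 was not called after removal of GC and length trends (adjusted p = 0.060 by limma). Il6st, the shared signalling subunit gp130, named after its value was seen, measured -0.07 ± 0.08.

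Of the transcription factor and its targets, Stat3 rose by 0.34 ± 0.08 and Socs3, the feedback inhibitor of the pathway, by 0.87 ± 0.19. Socs3 ran from 1.68 to 2.14 TPM in Con and from 2.75 to 6.23 in CAC, so that the groups were apart. Lrg1, an acute-phase glycoprotein of venous endothelium, ran from 0.575 to 1.68 TPM in Con and from 3.27 to 6.08 in 6 CAC samples, with 0.633 in replicate 3 (1.63 ± 0.32). The count was 10 rises with median-of-ratios scaling, 9 after removal of GC and length trends, and 12 without replicate 3, with 0 falls each time. Lcn2 is in both lists. The mean of this list was 2.62 to 2.99 log2 in CAC and 2.30 to 2.63 in Con.

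Markers of reactive astrocytes, glia that respond to injury and cytokines, rose in 3 of 23, which were Lcn2, Osmr and the protease inhibitor Serpina3n (0.38 ± 0.10), a share near the 11.3% of all genes that rose. Gfap, the astrocyte filament, measured 226 to 515 TPM in CAC and 239 to 315 in Con and did not pass (0.30 ± 0.15, adjusted p = 0.15 by limma). Of 18 complement genes C4b alone rose (0.68 ± 0.21). It has a near-identical copy, C4a, and was not called without the samples rich in striatum or blood genes (adjusted p = 0.16), which at 8 weeks are CAC replicate 3 and Con replicates 1 and 2.

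The homeostatic astrocyte list moved in both directions, with 5 rises and 3 falls of 24, against 11.3% and 3.2% of all genes. Its median was -0.03, and under median-of-ratios scaling 4 rose and 6 fell, against 4.35% and 4.68%. The rises besides Etnppl were Aldoc, the brain aldolase (0.37 ± 0.07), the growth factor receptor Fgfr3 (0.40 ± 0.10), the glutamine synthetase Glul (0.35 ± 0.10) and the gap junction protein Gjb6 (0.47 ± 0.16). The falls were the brain fatty acid-binding protein Fabp7, the water channel Aqp4 (-0.59 ± 0.15) and the secreted bridging protein Mfge8 (-0.55 ± 0.13). Aqp4 measured 90.9 to 107 TPM in Con and 41.8 to 107 in CAC, where the highest value was replicate 3. Mfge8 showed no overlap.

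Of the 28 genes for brain endothelium and its barrier, 8 rose and 3 fell as deposited, with a median of 0.07, and 7 rose and 6 fell with median-of-ratios scaling. The shares of all genes were 11.3% and 3.2%, and 4.35% and 4.68% so scaled. Among the rises, Mfsd2a, which carries lysophospholipids with docosahexaenoic acid into the brain, measured 23.4, 23.8, 26, 28.9 and 37.2 TPM in Con and 45.6 to 63.3 in 6 CAC samples, with 25.8 in replicate 3. It rose by 0.83 ± 0.21 (adjusted p = 0.0084 by limma), or 0.99 without that sample. Slc2a1, the glucose transporter of the barrier, ran from 62 to 82 TPM in Con and from 102 to 123 in the same 6, with 79.2 in replicate 3 (0.51 ± 0.13). The organic anion transporter Slco1a4 rose by 0.42 ± 0.10 and the transferrin receptor Tfrc by 0.48 ± 0.12.

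The endothelial surface proteins Ly6c1, Ly6a and Cd34 rose by 0.59 ± 0.12, 0.85 ± 0.27 and 0.42 ± 0.10. Ly6c1 measured 45.5 to 51.8 TPM in Con and 73 to 85.1 in 6 CAC samples, a gap wider than the spread within either set, with 48.6 in replicate 3. One of the falls, the tight junction protein Cldn5 (named after its value was seen, -0.55 ± 0.20), was not called without CAC replicate 3 (adjusted p = 0.067) or without the samples rich in striatum or blood genes (adjusted p = 0.30).

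Genes of angiogenic signalling, which guides vessel growth, fell in 7 of 28 and rose in 2, with 7 falls and 1 rise under median-of-ratios scaling. Of all genes 3.2% fell and 11.3% rose, or 4.68% and 4.35% so scaled. Among the ligands, Apln, the peptide apelin, measured 12.8, 14.4, 14.8, 15.3 and 15.8 TPM in Con and 5.36, 8.27 and 13 TPM (lowest, median, highest) in CAC. The highest was replicate 3, the sole CAC sample within the Con range, and Apln fell by 0.82 ± 0.15 (adjusted p = 0.001 by limma). Vegfa, the main growth factor of endothelium, ran from 46.3 to 55.8 TPM in Con and from 29 to 37.4 in 6 CAC samples, with 59.7 in replicate 3. The chemokine Cxcl12 ran from 30 to 37.7 TPM in Con and from 17 to 28.1 in the same 6, with 43.8 in replicate 3. Vegfa fell by 0.51 ± 0.12 and Cxcl12 by 0.64 ± 0.14, and without replicate 3 the differences were -0.62 and -0.81.

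Among the receptors, Kdr, the main VEGF receptor, fell by 0.63 ± 0.17, S1pr1, the sphingosine phosphate receptor, by 0.27 ± 0.07 and Tie1, an orphan endothelial kinase, by 0.40 ± 0.13. The rises were Hif3a and Hif1a, the latter by 0.19 ± 0.06 and neither under median-of-ratios scaling (adjusted p = 0.10) nor without Con replicate 5 (adjusted p = 0.072). In the list of arterial and venous genes, Gkn3, an arterial gene of mouse brain, measured 4.01, 5.18, 5.25, 6.59 and 7.26 TPM in Con and 0.22, 0.594 and 2.2 TPM in CAC, with no overlap (-2.29 ± 0.36, adjusted p = 0.00024 by limma). Alpl, an arterial and capillary phosphatase, fell by 0.70 ± 0.22. Vwf, the clotting factor carrier of veins, rose by 0.75 ± 0.24 and Ackr1, the venous chemokine receptor, by 0.22 ± 0.07, the latter neither under median-of-ratios scaling (adjusted p = 0.11) nor without Con replicate 5 (adjusted p = 0.069). Of the 18 genes in that list 4 rose and 2 fell, against 11.3% and 3.2% of all genes, and the other rises were Tmem252 and Lrg1.

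**Figure D3:**
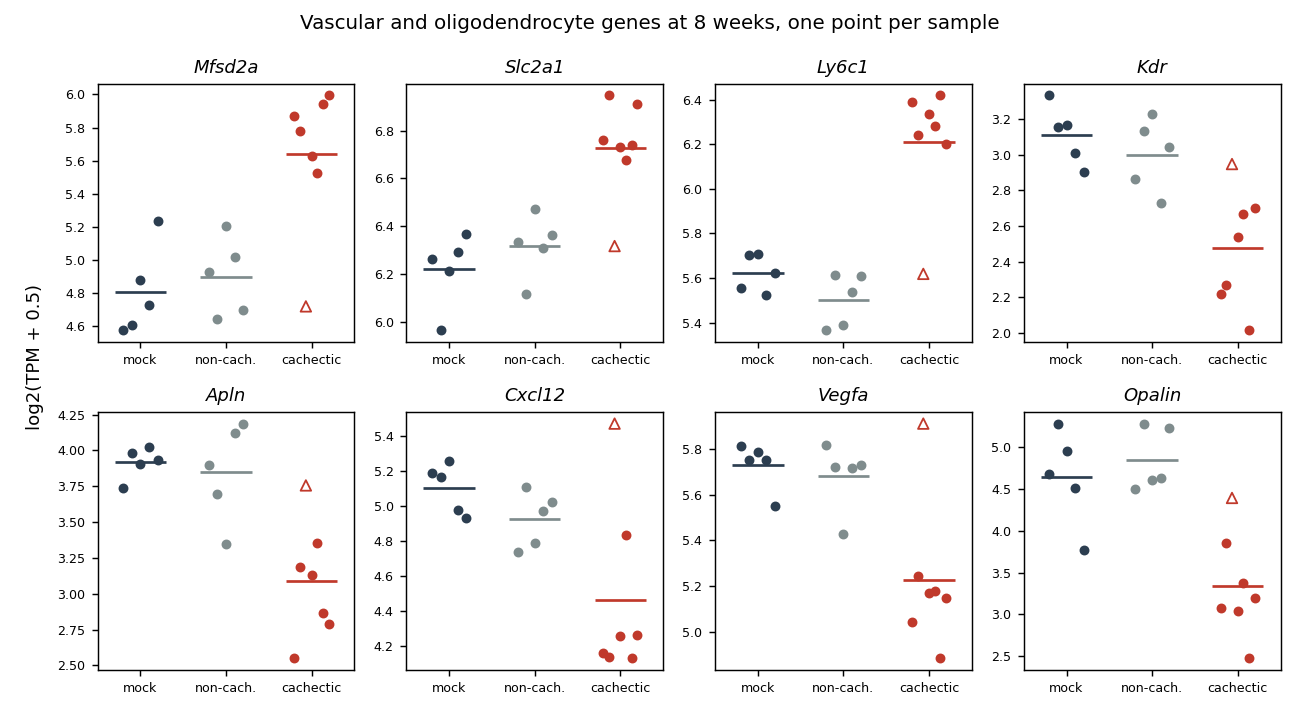
Levels of 7 vessel genes and the oligodendrocyte gene Opalin at 8 weeks as log2(TPM + 0.5), one point per sample for mock (5), non-cachectic (5) and cachectic (7) mice, with lines at the group means and CAC replicate 3 as an open triangle. Mfsd2a, Slc2a1 and Ly6c1 are higher and Apln, Cxcl12 and Vegfa lower in 6 of the 7 cachectic samples than in the mock samples, and the triangle falls among or beyond the mock samples in these 6 genes.

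Oligodendrocyte genes fell more often than they rose. Of 30 genes of myelinating oligodendrocytes 8 fell and 2 rose, against 3.2% and 11.3% of all genes. The list's median was -0.31, and its counts were the same under median-of-ratios scaling. Without the samples rich in striatum or blood genes the counts were 3 falls and 3 rises. Opalin, a myelin membrane protein, measured 13.2, 22.3, 25.2, 30.5 and 38.4 TPM in Con and 5.06, 8.64 and 20.5 TPM in CAC. The groups overlapped through CAC replicates 2 and 3 and Con replicate 5, and Opalin fell by 1.30 ± 0.32 (adjusted p = 0.0078 by limma).

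The gap junction protein Gjb1 fell by 0.75 ± 0.23, the carbonic anhydrase Car2 by 0.47 ± 0.13, and Ugt8a, which makes the myelin lipid galactosylceramide, by 0.71 ± 0.25. The rises were the lipocalin Apod (1.04 ± 0.27), at 106 to 160 TPM in Con, 210 to 366 in 6 CAC samples and 88.6 in replicate 3, and the actin-binding protein Anln (0.53 ± 0.14). The abundant structural gene Mbp, named after its value was seen, measured -0.16 ± 0.15 and did not pass. In the list for oligodendrocyte precursors and newly formed cells 5 of 20 fell and 2 rose, against 3.2% and 11.3% of all genes. Its called genes included Enpp6, a mark of newly formed cells (-0.69 ± 0.20), and the transcription factor Nkx2-2 (-0.66 ± 0.20). The matrix proteoglycan Vcan rose by 0.34 ± 0.08.

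Genes of neural stem cells and newborn neurons, which the dentate gyrus keeps into adult life, fell in 6 of 23, and 0 rose. As deposited 3.2% of all genes fell and 11.3% rose, and the list's counts were the same under median-of-ratios scaling. Nes, the filament of progenitors, measured 5.59, 6.02, 6.81, 6.82 and 7.43 TPM in Con and 2.37, 3.56 and 4.59 TPM in CAC, with no overlap (-0.84 ± 0.15, adjusted p = 0.001 by limma). Fabp7 ran from 45.9 to 84.7 TPM in Con and from 15.8 to 29.8 in 6 CAC samples, with 59.9 in replicate 3 (-1.44 ± 0.27). The transcription factors Sox2 and Hes5 and the quiescence gene Hopx fell by 0.40 ± 0.12, 0.74 ± 0.23 and 0.41 ± 0.13, and Hopx was not called without Con replicate 5 (adjusted p = 0.058). Igfbpl1, of newborn neurons, fell by 0.60 ± 0.20. Nes is also made by endothelium, and Fabp7, Sox2 and Hopx by astrocytes. Of 18 proliferation genes Mki67 alone fell (-0.46 ± 0.14), and the groups overlapped at levels under 1 TPM. Without the samples rich in striatum or blood genes the stem cell list held 3 falls and 1 rise.

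The falls among antigen presentation and interferon genes were lost without Con replicate 5. MHC class I and antigen presentation genes fell in 5 of 17 and rose in 0, against 3.2% and 11.3% of all genes. B2m, the light chain shared by MHC class I molecules, measured 161, 163, 187, 226 and 385 TPM in Con and 102, 130 and 164 TPM in CAC (-0.71 ± 0.18), and H2-K1, a heavy chain, ran from 13.7 to 67.1 TPM in Con and from 11.1 to 17.0 in CAC (-0.81 ± 0.24). The other falls were the immunoproteasome subunits Psmb8 and Psmb9 and the peptide-loading protein Tapbp. Con replicate 5 was the highest Con sample for B2m, H2-K1, Psmb8 and Psmb9. Without it 0 of the 17 passed, with adjusted p = 0.058 for B2m and 0.16 for H2-K1.

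Interferon-stimulated genes fell in 3 of 35 and 1 rose, against 3.2% and 11.3% of all genes. Without Con replicate 5, 0 of the 35 fell. The falls were the GTPases Tgtp2 (-1.50 ± 0.39), Gbp3 (-1.07 ± 0.32) and Gbp7 (-0.41 ± 0.14). Tgtp2 has a near-identical copy, Tgtp1, and how reads were split between them is not known. Both calls for MHC class II, H2-Eb1 and H2-Aa, and that for the immunoglobulin heavy chain Ighm were likewise lost (adjusted p = 0.29, 0.28 and 0.065). Igkc was still called (adjusted p = 0.035), at 0 to 1.11 TPM in CAC. Of 19 lymphocyte and plasma cell genes 5 were high enough to test, and their summed level was 13.32 to 24.61 TPM in CAC and 22.14 to 209.5 in Con. The part of such cells in the immune results was not tested.

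Among microglial genes, 2 of 15 markers of the resting state fell and 0 rose, where 3.2% and 11.3% of all genes did. The median of this list was -0.27. Olfml3, a secreted microglial glycoprotein, measured 5.71, 6.83, 6.95, 6.99 and 7.6 TPM in Con and 1.17, 2.81 and 5.61 TPM in CAC, with no overlap (-1.08 ± 0.27), and the purine receptor P2ry13 fell by 0.60 ± 0.18. Lyz2, the macrophage lysozyme, ran from 15.7 to 45.8 TPM in Con and from 8.38 to 15.4 in CAC (-1.06 ± 0.23), and it was called without Con replicate 5 (adjusted p = 0.023). Cd63, a lysosomal tetraspanin, fell by 0.41 ± 0.12. These 2 were the called genes among 16 of activated microglia.

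Fuel and hormone response genes were mixed. Genes of fasting and lipid use rose in 9 of 35 and fell in 3, against 11.3% and 3.2% of all genes. Their median was 0.06, but with median-of-ratios scaling 5 rose and 6 fell, against 4.35% and 4.68%. Besides Plin4, Pdk4 and Gpd1, the rises included the triglyceride lipase Pnpla2 (0.58 ± 0.17), the thioesterase Acot11 (0.44 ± 0.13) and Angptl4, an inhibitor of lipoprotein lipase (0.63 ± 0.20), which was not called without Con replicate 5 (adjusted p = 0.069). Hadha, a subunit of mitochondrial fatty acid oxidation, fell by 0.15 ± 0.05. Of 30 genes of insulin, IGF and FoxO signalling 4 rose and 0 fell, namely the insulin receptor Insr (0.29 ± 0.06), its signalling adaptor Pik3r1 (0.26 ± 0.08), the FoxO and p53 target Sesn1 (0.39 ± 0.09) and Txnip, a brake on glucose uptake (0.51 ± 0.15, adjusted p = 0.053 without Con replicate 5). Over all genes tested 11.3% rose, a share near that of this list. Insr showed no overlap, at 25.4 to 27.6 TPM in Con and 27.9 to 35.3 in CAC.

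Core clock genes rose in 5 of 21 and fell in 0, and in 3 and 1 under median-of-ratios scaling. The shares of all genes were 11.3% and 3.2%, and 4.35% and 4.68% so scaled. The repressor genes Cry1 and Cry2 rose by 0.53 ± 0.12 and 0.23 ± 0.06, and the output factor Tef by 0.21 ± 0.06. The hour of dissection was not given in the sources used here, and its part was not tested. Rbm3, an RNA-binding protein induced by cooling, measured 68.5, 84.8, 86.8, 96.4 and 96.4 TPM in Con and 102, 144 and 158 TPM in CAC, without overlap (0.64 ± 0.14, adjusted p = 0.0032 by limma), and Cirbp, the other such gene, measured 0.36 ± 0.16 and did not pass. Of 18 iron genes 3 rose and 2 fell, where 11.3% and 3.2% of all genes did. The exporter Slc40a1, ferroportin, fell by 0.65 ± 0.13 with no overlap, at 6.42 to 7.71 TPM in Con and 3.43 to 5.64 in CAC. Its partner oxidase Heph rose by 0.53 ± 0.16.

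**Figure D4:**
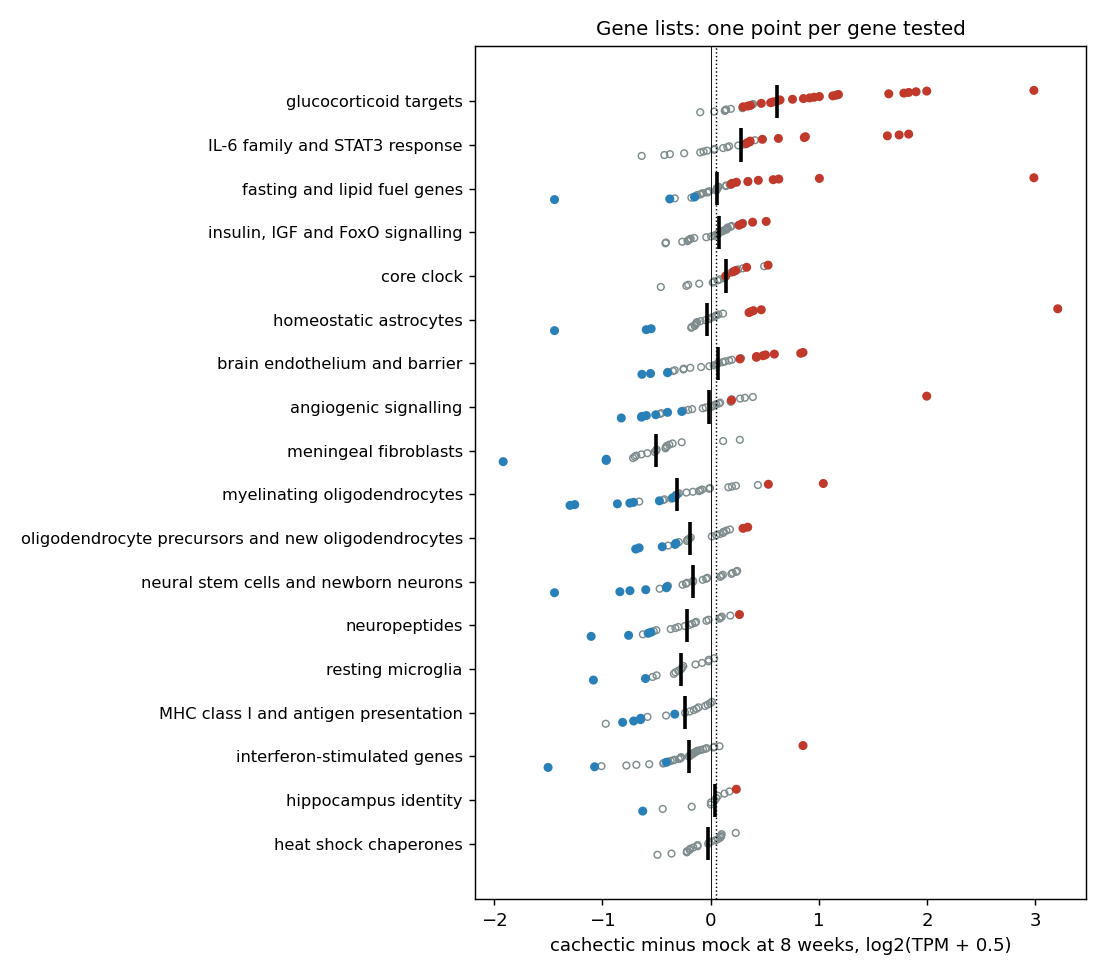
Differences between cachectic and mock samples at 8 weeks on the log2(TPM + 0.5) scale for 18 gene lists, one point per gene tested, filled where adjusted p was under 0.05, with a thick bar at each list's median and a dotted line at the median of all genes. The medians are highest for the glucocorticoid targets (0.61) and the IL-6 list (0.28), and among the lowest are meningeal fibroblasts (-0.50) and myelinating oligodendrocytes (-0.31).

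Of 15 pan-neuronal genes 2 rose and 1 fell, against 11.3% and 3.2% of all genes. The mean of the list was 8.07 to 8.20 log2 in CAC and 8.05 to 8.24 in Con. Among 22 neuropeptides and their processing genes 4 fell and 1 rose, against 3.2% and 11.3% of all genes, with a list median of -0.22. The mean of that list was lower in every CAC sample (4.72 to 4.84 log2) than in any Con sample (4.99 to 5.07). After removal of GC and length trends 2 fell and 1 rose. Npy, an inhibitory peptide of interneurons, measured 102, 106, 123, 138 and 142 TPM in Con and 69.2, 75.1 and 97.0 TPM in CAC, with no overlap (-0.58 ± 0.13), and was not called after removal of GC and length trends (adjusted p = 0.30). Cck, cholecystokinin, ran from 485 to 549 TPM in Con and from 133 to 355 in CAC (-1.10 ± 0.29), and from 247 to 395 in the 5 NCAC samples. The interneuron peptides Pnoc and Cort fell by 0.55 ± 0.19 and 0.76 ± 0.26. Neither was called without Con replicate 5 (adjusted p = 0.059 and 0.056), nor Cort without CAC replicate 3 (adjusted p = 0.059). The processing protease Pcsk2 rose by 0.27 ± 0.06. The serotonin receptor Htr2a rose by 0.60 ± 0.15. The hippocampal calcium sensor Hpca rose by 0.24 ± 0.08 and the calmodulin-binding protein Nrgn fell by 0.63 ± 0.22, and neither call was kept without Con replicate 5 (adjusted p = 0.072 and 0.069), nor that of Hpca without CAC replicate 3 (adjusted p = 0.052).

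The lowest difference of all genes, -3.49, was in the list of 13 mitochondrially encoded genes, of which 2 fell and 0 rose. The median of that list was -0.08, and 1 of the 13 fell after removal of GC and length trends. Its mean was 12.016 log2 in CAC replicate 2, 12.97 to 13.251 in the other CAC samples and 13.273 to 13.512 in Con. Among the falls with small p-values were genes outside the lists. Gng11, a G-protein subunit abundant in endothelium, measured 21.9, 23, 25.6, 28.9 and 29.2 TPM in Con and 10.3, 11.4 and 17.1 TPM in CAC, and fell by 0.997 ± 0.14 (adjusted p = 0.00012 by limma). Serpinb1a, an inhibitor of neutrophil proteases, measured 10.9, 10.9, 12.1, 14.9 and 14.9 TPM in Con and 2.67, 3.93 and 10.2 TPM in CAC (-1.43 ± 0.23). Neither gene overlapped between groups. Btbd17 fell by 1.01 ± 0.19, the Wnt-inactivating enzyme Notum by 0.71 ± 0.14 and the matrix protein Efemp1 by 0.87 ± 0.18. Myoc, a secreted glycoprotein of fibroblasts and astrocytes, ran from 16.2 to 24.2 TPM in Con and from 1.65 to 13.8 in CAC (-1.92 ± 0.39). It belongs to the list of meningeal fibroblasts, of which 3 of 19 fell and 0 rose, against 3.2% and 11.3% of all genes. That list's mean was 2.53 to 3.22 log2 in CAC and 3.15 to 4.14 in Con, and the part of attached meninges was not tested.

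A trait of the libraries ran along with the groups. Regressed on gene length, the deviation of a sample changed per doubling of length by a log2 value of -0.1259 to -0.1113 in the Con samples, -0.0653 to 0.0286 in CAC and -0.0771 to -0.0545 in NCAC. By this slope short genes were higher relative to long ones in the Con samples of 8 weeks than in CAC. The falls of Tmsb10, a short actin-binding protein (-1.34 ± 0.36), and the histone Hist1h2al (-1.86 ± 0.60), stand beside it. After removal of GC and length trends 1074 genes rose and 546 fell, Tmsb10 was called (adjusted p = 0.012), and Hist1h2al was not (adjusted p = 0.15), nor was it without Con replicate 5 (adjusted p = 0.054). The sources used here do not say why the slope differed.

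Non-cachectic tumours of the same age give a reference that shares no mock sample. CAC differed from NCAC in 285 genes, 197 higher (1.26%) and 88 lower (0.564%). The count ran from 72 without NCAC replicate 5 to 714 without CAC replicate 3. NCAC differed from Con in 0 genes (0% higher and 0% lower by limma), with 1226 at an unadjusted p under 0.05 and 0 by voom on the recovered reads. Both comparisons share samples with CAC against Con, so the values are set side by side. For Etnppl the difference was 2.78 against NCAC (adjusted p = 0.00092), and NCAC minus Con was 0.43. For Lcn2 the pair was 1.94 and -0.11, for Map3k6 1.89 and 0.01, for Osmr 1.08 and -0.20, for Gkn3 -2.40 and 0.10, for Serpinb1a -1.42 and -0.0047, and for Nes -0.90 and 0.06. All 7 were called against NCAC. For other falls the NCAC samples lay nearer to CAC, and none of them was called against NCAC: B2m gave -0.18 and -0.53, Cck -0.25 and -0.85, Lst1, a leukocyte gene, -0.67 and -0.77, the meiotic gene Ccdc36 -0.25 and -1.16, and Tmsb10 -0.61 and -0.73. Sgk1 gave 0.73 (adjusted p = 0.051) and 0.43. NCAC minus Con was not called for any of these 13 genes.

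The difference between CAC and Con was also set against that at 2 weeks, from other libraries. A test of the change from 2 to 8 weeks called 1 gene of 15608 (0.00641% higher, 0% lower), with 1505 at an unadjusted p under 0.05, and 18 genes without CAC replicate 3 of 8 weeks. The gene was Spink8, a protease inhibitor of CA1 pyramidal neurons. It measured 38.4 TPM in CAC and 82.7 in Con at 2 weeks (-1.12 ± 0.17), and at 8 weeks it ran from 82.7 to 116 TPM in CAC and from 61.3 to 89.2 in Con (0.43 ± 0.15). The 8-week difference of Spink8 was not called under median-of-ratios scaling (adjusted p = 0.10) or without Con replicate 5 (adjusted p = 0.072). The change was 1.56 ± 0.23 (adjusted p = 0.00022 by limma), and at 4 and 6 weeks the differences were 0.04 and 0.30. At 2 weeks CAC replicate 1 lay 3.45 log2 above the median sample in striatum genes. Thalamus genes were called higher in CAC at 2 weeks in 6 of 12. The part of tissue makeup in the change of Spink8 was not tested.

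No other gene passed. Among those with the next smallest p-values, Scgb3a1 changed by 3.52 ± 0.75, Ly6c1 by 0.83 ± 0.18 and Ch25h by 2.03 ± 0.45, and in the other direction Serpind1, a thrombin inhibitor, by -2.11 ± 0.43, Gkn3 by -2.43 ± 0.54 and Apln by -1.03 ± 0.23, each at adjusted p = 0.071 by limma. Calls for CAC against Con numbered 577 at 2 weeks, 125 at 4 weeks and 39 at 6 weeks. Etnppl measured 1.25, 1.32, 2.93 and 3.21 at the 4 times, Cdkn1a 0.10, 0.35, 1.41 and 1.65, and Gkn3 0.13, -1.32, -2.23 and -2.29. The median of the glucocorticoid list was 0.10, 0.20, 0.41 and 0.61, with 0 members called at 2 and 4 weeks and 5 at 6 weeks. The weeks differ in tissue makeup, since some samples of 2 and 4 weeks were rich in striatum genes.

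**Figure D5:**
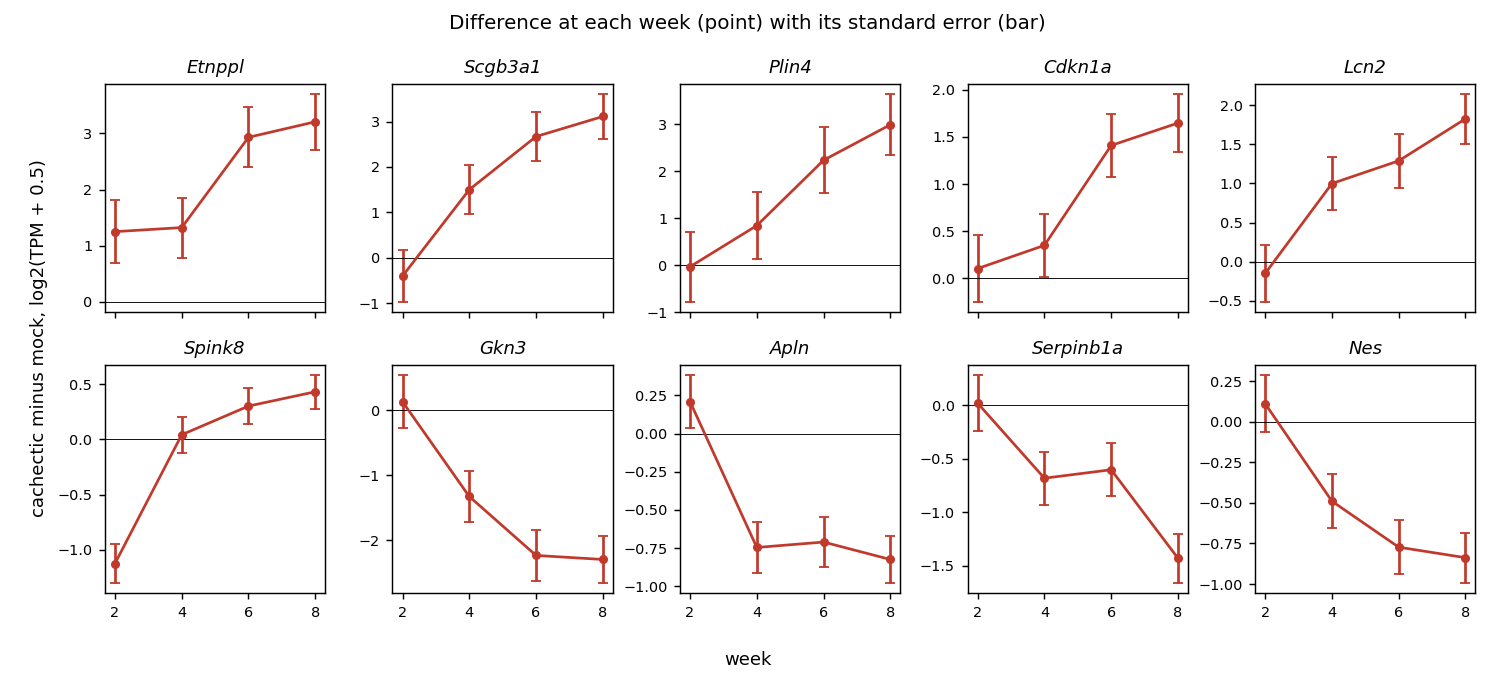
Difference between cachectic and mock samples on the log2(TPM + 0.5) scale at 2, 4, 6 and 8 weeks for 10 genes, with the standard error from limma as a bar. Etnppl, Scgb3a1, Plin4, Cdkn1a and Lcn2 lie higher and Gkn3, Apln, Serpinb1a and Nes lower at 8 weeks than at 2 weeks, and of the 10 the change from 2 to 8 weeks passed the threshold for Spink8 alone.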

How the data were processed

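Bulk hippocampal RNA was sequenced in 60 samples, of which 7 CAC and 5 Con samples of 8 weeks are compared here. Per the submitters' processing notes the build was mm10, and the deposited values are TPM per gene made by the authors; the aligner and counter were not given in the sources used here. For 24223 of the 24227 genes above 0 (99.98%) the values were whole multiples of what 1 read is worth, within 0.02 reads, and from these steps the reads per gene and sample were recovered. Genes with at least 1 TPM in at least 4 samples (15608) were tested with limma 3.58.1 (R 4.3.3, trend) on log2(TPM + 0.5), with 12 group means over all 60 samples, Benjamini-Hochberg adjustment and a threshold of 0.05. The test was checked on simulated counts that had the same dispersion for every gene and no sample apart, tissue mixture or length trend. That check does not cover these features of the data. The change from 2 to 8 weeks is an interaction term.

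The members, gene lists (57) and the rule for named genes were chosen with earlier results of these data known. Named genes were the 15 largest and the 15 with the smallest p in each direction, leaving out predicted genes and those under 1 TPM, up to 8 members of each list described, and 5 per direction for the change with time; of these the text describes those that bear on a list or a sample. Genes outside the rule are marked as such. Alternatives were other pseudocounts (0.1 and 1), filters, median-of-ratios scaling, GC and length trends removed, array weights, only the compared groups, a replicate block, leaving out each sample, and leaving out samples whose striatum or erythrocyte genes were over 1 log2 above the median sample. Figures were drawn with matplotlib 3.10.9.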

Additional observations from a re-analysis of the deposited data

Results flagged for a closer look

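Within the 7 CAC and 5 Con samples of 8 weeks, the named genes were searched for a single sample far from the rest of its group. Such a sample was found in 33 of 286 groups looked at, where the nominal chance rate of the rule is about 1 in 20. The genes were chosen from these data and share the same samples, so the groups are not independent and the excess was not tested. CAC replicate 3 was the far sample in 19 of them.

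It was far below the other 6 for Etnppl (0.995 TPM), Plin4 (2.53 TPM), Rtp1 (0.74 TPM), Sult1a1 (12.6 TPM), Lrg1 (0.633 TPM), Tsc22d3 (40.2 TPM) and Heph (2.89 TPM). The same held for the vessel genes Ly6c1 (48.6 TPM), Slc2a1 (79.2 TPM), Mfsd2a (25.8 TPM) and Ly6a (13.5 TPM), and for Apod (88.6 TPM), Glul (1100 TPM), Gjb6 (51.7 TPM), Acot11 (25.1 TPM), Sesn1 (61.5 TPM) and Mdm2 (34.5 TPM). It was far above them for Vegfa (59.7 TPM) and Psmb9 (1.73 TPM).

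Con replicate 5 was far above the other Con samples for C4b (72.8 TPM), Psmb8 (7.51 TPM) and Psmb9 (3.6 TPM) and far below them for Vegfa (46.3 TPM), Fabp7 (45.9 TPM) and Inhba (1.7 TPM). Other Con samples stood apart in single genes: replicate 1 was high for Hif1a (54.1 TPM), replicate 2 was high for Pcsk2 (128 TPM) and Gria2 (220 TPM), replicate 3 was high for Pik3r1 (35.6 TPM) and replicate 4 was low for Pdk4 (13.7 TPM). In CAC, replicate 1 was low for Dhcr7 (18.3 TPM), and replicate 2 was low for Tmsb10 (21.4 TPM) and Ndufa3 (40 TPM).

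Spink8 differed between 2 and 8 weeks in its CAC minus Con difference, by 1.56 on the log2 scale in the interaction test.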

How the results depend on the processing

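The 2256 calls for CAC against Con became 1409 with median-of-ratios scaling, 5277 with array weights, and 1034 to 3070 when each sample was left out in turn. They became 2847 with only the compared groups, of which 1935 were among the 2256. The 285 calls for CAC against NCAC became 83 with only the compared groups, 460 with GC and length trends removed, 1096 without the samples rich in striatum or blood genes, 1485 with array weights, and 72 to 714 with a sample left out. There they were fewer without CAC replicate 1 (146), 2 (142), 6 (114) or 7 (154) or NCAC replicate 2 (105), 4 (165) or 5, and rose without NCAC replicate 3 (474) or CAC replicate 3. The 0 calls for NCAC against Con became 1 with no filter, 5 with only the compared groups, 792 with array weights, and 0 to 1 with a sample left out, the 1 without NCAC replicate 5. The single call for the change with time became 6 with only the compared groups, 3 with GC and length trends removed, 17 without the rich samples, 51 with array weights, and 1 to 18 with a sample left out. It was 2 without CAC replicate 2 or Con replicate 3 of 2 weeks or Con replicate 2 of 8 weeks. With only the compared groups and a replicate block, the counts were 6 for CAC against Con, 0 for CAC against NCAC and 3 for the change with time. For CAC and Con of 8 weeks the numbers did not pair the samples: the deviations of same-numbered samples correlated at -0.126 to -0.008. For CAC and NCAC of 8 weeks they correlated at -0.138 to 0.163, the highest in replicate 5, which matched its own number best. For CAC and Con of 2 weeks the range was -0.037 to 0.114, where replicate 4 matched its own number best. An analysis with voom on recovered reads, added after seeing the data, gave 1597, 357, 0 and 1 calls for the 4 tests in the order above. Of 136 named genes called, none reversed in any setting, 72 were called whichever sample was left out, 19 were lost with median-of-ratios scaling, 18 with GC and length trends removed, and 133 with the block. The cause of these shifts was not tested. Differences in genes near 1 TPM rest on few reads.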

Other observations

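Among genes of arrest and p53, 4 of 19 rose in CAC and 0 fell, against 11.3% and 3.2% of all genes. Besides Cdkn1a they were Trp53inp1, a p53 target of autophagy (0.53 ± 0.14), the kinase Plk2 (0.28 ± 0.06) and Mdm2, the ligase that degrades p53 (0.19 ± 0.06), the last not under median-of-ratios scaling (adjusted p = 0.13 by limma). Plk2 showed no overlap, at 210 to 254 TPM in Con and 258 to 306 in CAC. In cholesterol synthesis and transport 2 of 28 rose and 3 fell, and 0 and 3 under that scaling. The synthesis enzymes Hmgcs1, Dhcr7 and Tm7sf2 fell by 0.28 ± 0.09, 0.26 ± 0.09 and 0.30 ± 0.09. The cyclase Lss (0.21 ± 0.06) and the cholesterol exporter Abca1 (0.36 ± 0.13) rose as deposited, but not under that scaling (adjusted p = 0.096 and 0.095). Without Con replicate 5 Dhcr7 and Abca1 were not called (adjusted p = 0.063 and 0.081).

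Synaptic lists depended on the scaling. Of 32 glutamate receptor and scaffold genes 4 rose and 1 fell as deposited, and 0 rose and 2 fell with median-of-ratios scaling. Over all genes tested 11.3% rose and 3.2% fell, shares close to those of this list as deposited. Grm3, a metabotropic receptor made by astrocytes as well as neurons, fell in both (-0.74 ± 0.17), at 26.8 to 41.1 TPM in Con and 15.2 to 26.5 in CAC, with no overlap. The AMPA receptor subunits Gria2 (0.25 ± 0.08) and Gria3 (0.18 ± 0.05) and the scaffold Dlg2 (0.22 ± 0.07) rose as deposited, and none of the 3 was called with that scaling (adjusted p = 0.074, 0.085 and 0.13). The 3 rises among 35 potassium channels, Kcnq3, Kcnq5 and Kcnk2, were likewise lost (adjusted p = 0.066, 0.065 and 0.078), and Kcnk2 also without Con replicate 5 (adjusted p = 0.064). The adenosine receptor Adora1 rose by 0.18 ± 0.06 and did not keep its call (adjusted p = 0.10).

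Nuclear genes of oxidative phosphorylation rose in 7 of 37 and fell in 3, and in 1 and 2 with median-of-ratios scaling. The shares of all genes were 11.3% and 3.2%, and 4.35% and 4.68% so scaled. With only the compared groups 8 of the 37 rose and 11 fell. Of the 37, 12 lay wholly below Con and 3 wholly above, against 2.29% and 4.72% of all genes tested. Of 38 cytosolic ribosomal protein genes 11 lay wholly below Con and 2 wholly above, yet by limma 5 rose and 0 fell. With only the compared groups 4 of these 38 rose and 12 fell. After removal of GC and length trends 11 of them rose and 0 fell. The same removal gave 10 rises and 2 falls in 36 oxidative phosphorylation genes, and 1074 and 546 in all 15037 genes. The mean of the oxidative phosphorylation list was 7.45 to 7.72 log2 in CAC and 7.74 to 7.79 in Con. Ndufs1 and Sdha, of complexes I and II, rose by 0.17 ± 0.05 and 0.12 ± 0.04 as deposited and were not called so scaled (adjusted p = 0.12 and 0.16). The short genes Ndufa3 and Cox5a fell by 0.81 ± 0.29 and 0.55 ± 0.17, Ndufa3 not without Con replicate 5 (adjusted p = 0.077). Both groups of each were apart, at 133 to 144 TPM in Con against 40 to 93.4 in CAC for Ndufa3 and 313 to 340 against 168 to 262 for Cox5a. Inhba, the activin subunit, fell by 0.66 ± 0.21, with overlap.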
